A study of Mus musculus with 6 samples.

Results

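The interferon response and MHC class I genes were examined in the lungs of male mouse pups with and without an active human SRY transgene. Members were taken by gene symbol, by a rule that uses no measured value but was set with earlier results of these data known. They were the subunits of the interferon receptors, the Stat and Irf transcription factors of interferon signalling, Rsad2, Usp18, Mx1, the Oas, Ifit, Ifitm, Ifi and Gbp genes, Igtp, the class I heavy chain genes of the H2 complex, and B2m, Tap1, Tap2, Tapbp, Psmb8, Psmb9 and Psmb10. The array held 131 probes for 86 such genes, of 25697 probes for 18138 symbols in all. Isg15 and H2-D1, which the same choice named, have no probe under those symbols. Of the 131 probes, 70 probes of 48 genes were bright enough to be tested. Of the 61 others, 44 were detected on no array, and 38 genes had no tested probe.

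All mice were males of the FVB strain (FVB/N in the study's methods) at postnatal day 6, and each group held 3 mice with 1 array each. The Signalox-hSRY transgene lies as a single copy at the H11 locus. Its CAG promoter, active in most cell types, drives a red fluorescent protein until Cre recombinase removes that segment, after which it drives human SRY together with EGFP. The hSRY-ON mice had the recombined transgene. Their mothers carried Ddx4-Cre and the eggs supplied the recombinase, so that the pups chosen for the arrays had no Cre transgene themselves. The hSRY-OFF mice are, by the study's use of the name, carriers of the transgene before recombination, although the study also compares hSRY-ON pups with littermates called controls. The groups therefore also differed in which fluorescent protein gene was active. The array has no probe for human SRY, so the activity of the transgene was not measured. Nothing says whether the mice of a group came from separate litters. By the study's account, carriers born to Ddx4-Cre mothers are recombined efficiently whether or not they inherit Cre. Unrecombined carriers would then have had other mothers, and group could not be told apart from litter or the mother's genotype.

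Interferons are secreted proteins that cells release on meeting viruses and other stimuli. Type I interferons bind a receptor of Ifnar1 and Ifnar2 and act through a complex that includes Stat2 and Irf9 and binds interferon-stimulated response elements. Interferon gamma binds a receptor of Ifngr1 and Ifngr2 and acts on genes with gamma-activated sites. Irf1 is a target of this second route and itself drives class I genes. A class I molecule consists of a heavy chain and B2m, and shows peptides to T cells. The peptides are cut by proteasome subunits such as Psmb8, Psmb9 and Psmb10, carried by Tap1 and Tap2, and loaded with the help of Tapbp.

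Promoter windows, from 250 bases before to 50 after a start site, were at hand for 65 of the 86 genes. The windows below belong to antiviral, transcription factor and class I presentation genes that the results turn on, and show which of them hold the letters that interferon-activated factors bind. They are given 5′ to 3′ on the strand of the gene, from RefSeq with build GRCm38.p6. Capitals mark the core of the interferon-stimulated response element, spelled GAAA, any 2 bases and GAAA again, on either strand (TTTC, 2 bases, TTTC on the other). In Irf1 they mark the core of the gamma-activated site, TTC, any 3 bases and GAA.

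The 2 stretches in capitals of Ifit3, an interferon-induced antiviral protein, start 156 and 122 bases before the start site.
Ifit3, chr19:34583279-34583578, plus strand: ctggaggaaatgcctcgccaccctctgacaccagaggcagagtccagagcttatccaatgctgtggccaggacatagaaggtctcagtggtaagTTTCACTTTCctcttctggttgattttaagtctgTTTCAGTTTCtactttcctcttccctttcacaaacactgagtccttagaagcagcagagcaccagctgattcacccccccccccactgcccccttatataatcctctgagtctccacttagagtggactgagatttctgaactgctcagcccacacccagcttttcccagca
Rsad2, an antiviral enzyme also called viperin, has 1 match 120 bases before its start.
Rsad2, chr12:26456403-26456702, minus strand: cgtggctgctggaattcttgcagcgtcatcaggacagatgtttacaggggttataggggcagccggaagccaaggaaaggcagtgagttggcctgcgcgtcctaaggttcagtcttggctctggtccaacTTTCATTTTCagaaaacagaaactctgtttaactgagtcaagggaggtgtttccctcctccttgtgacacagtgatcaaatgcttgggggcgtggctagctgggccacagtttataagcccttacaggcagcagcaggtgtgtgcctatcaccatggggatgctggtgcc
B2m, the light chain of class I, has 1 match 139 bases before its start.
B2m, chr2:122147437-122147736, plus strand: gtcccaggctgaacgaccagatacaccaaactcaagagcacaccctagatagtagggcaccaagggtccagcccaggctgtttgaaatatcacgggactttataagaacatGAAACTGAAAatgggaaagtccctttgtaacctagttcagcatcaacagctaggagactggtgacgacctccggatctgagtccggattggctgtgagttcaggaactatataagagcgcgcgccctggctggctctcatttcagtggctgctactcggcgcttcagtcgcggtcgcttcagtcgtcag
The first window of Irf1 holds 1 match of the gamma-activated site core, 90 bases before its start.
Irf1, chr11:53769764-53770063, plus strand: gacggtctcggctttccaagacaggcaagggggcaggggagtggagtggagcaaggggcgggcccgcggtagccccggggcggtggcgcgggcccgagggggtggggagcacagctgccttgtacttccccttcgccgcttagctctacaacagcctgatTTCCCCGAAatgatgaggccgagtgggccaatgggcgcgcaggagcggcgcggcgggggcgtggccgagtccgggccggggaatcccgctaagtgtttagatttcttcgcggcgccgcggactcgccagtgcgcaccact
The window of Tap1, the peptide transporter, holds neither motif, and it shares 275 bases with the window of its neighbour Psmb9 on the opposite strand.
Tap1, chr17:34187306-34187605, plus strand: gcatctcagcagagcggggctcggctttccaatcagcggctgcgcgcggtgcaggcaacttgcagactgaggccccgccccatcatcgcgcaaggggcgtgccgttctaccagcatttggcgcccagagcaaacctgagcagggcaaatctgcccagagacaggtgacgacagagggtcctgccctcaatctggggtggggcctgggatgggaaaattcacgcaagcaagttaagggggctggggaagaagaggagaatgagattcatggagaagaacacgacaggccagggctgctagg

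The interferon-stimulated response element core was found in the windows of 19 of the 65 genes (29.2%), beside 3.99% of the 27025 genes with a window in the whole table. The gamma-activated site core, which reads the same on both strands, was found in 16 of them (24.6%), beside 9.55%. Both are matches of letters and not measured binding, and the Tap1 and Psmb9 windows share most of their bases. Of the 13 tested genes with the first motif, 1 had a probe past the threshold, Ifit3, and of the 10 with the second, 1, Irf1. Of all 48 tested member genes 9 had a probe past the threshold, and 26.9% of all tested probes on the array passed it. Oas1d and Usp18, which also had probes past it, have no window in the table.

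Between 13191 and 14134 probes were detected per array, and between 66 and 74 of the 131 member probes. Normalized values of 2 arrays correlated across probes at 0.991 to 0.993 within hSRY-OFF, 0.972 to 0.98 within hSRY-ON and 0.935 to 0.959 between the groups. The labelled tissue was borne out by the alveolar markers, since all 7 probes for surfactant genes and Lamp3 were detected on all 6 arrays. Levels are normalized log2 intensities throughout, and a difference is hSRY-ON minus hSRY-OFF on that scale, with its standard error. A probe was called when its limma p, adjusted by Benjamini-Hochberg over all 13841 probes tested, was under 0.05. Whole lung was measured, so fewer cells of a type and less RNA per cell cannot be told apart.

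Some interferon genes rose and others fell in hSRY-ON lungs, and most members were not called. Of the 70 tested probes, 13 were called (18.6%), against 26.9% of all probes tested on the array. There were 10 called higher (14.3%, against 13.6% of all) and 3 called lower (4.29%, against 13.3%). The groups did not overlap in 29 probes (41.4%, against 46.6% of all), with hSRY-ON above in 14 and below in 15 (22.4% and 24.1% of all tested probes). The median difference over the 70 probes was -0.12, and over all tested probes -0.03. Among the called genes, Ifit3, Oas1d, Usp18, Ifi30, H2-M9 and Ifngr1 were higher, while Irf1 was lower.

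**Figure D1:**
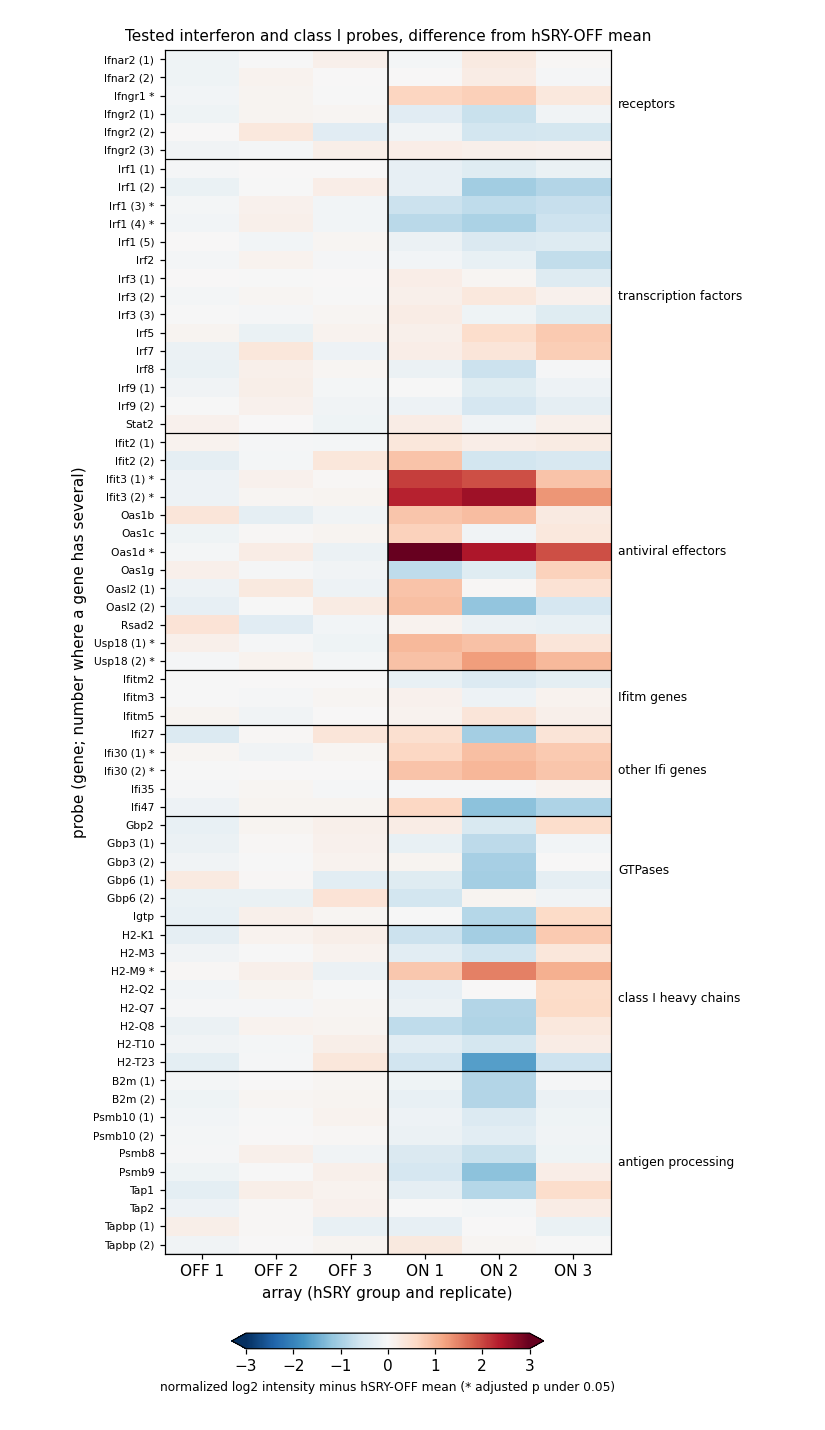
Difference of 66 of the 70 tested probes (rows, grouped by role, probes of a gene numbered in the order of their identifiers) from their hSRY-OFF means on each of the 6 arrays (columns), in log2 units, with colours saturating at 3 and asterisks for called probes. The strongest red lies in Oas1d and in both Ifit3 probes on hSRY-ON arrays 1 and 2, and the class I, antigen processing and GTPase probes are mostly blue on hSRY-ON array 2.

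Among the receptor genes, Ifngr1 alone was called, at 1 of 6 tested probes (16.7%, against 26.9% of all tested probes). Ifngr1, the ligand-binding chain of the interferon gamma receptor, had levels of 10.53, 10.69 and 10.59 in hSRY-OFF and 11.26, 11.32 and 10.91 in hSRY-ON. Every hSRY-ON value lay above every hSRY-OFF value, and the difference was 0.56 ± 0.14 (SE, n = 3 per group, limma adjusted p = 0.030). The call was lost on leaving out any array other than hSRY-ON 3, with adjusted p between 0.052 and 0.110. For Ifngr2, its signalling partner, the 3 probes gave -0.37 ± 0.17, -0.39 ± 0.21 and 0.15 ± 0.12, and none passed. The probes of Ifnar2 gave 0.08 ± 0.14 and 0.07 ± 0.13, with values of the groups interleaved, so no difference was detectable within 95% intervals that reached from -0.26 to 0.41. The single probe of Ifnar1 was not detected on any array.

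The transcription factors held all of the lower calls, at a share near that of all tested probes. They had 19 tested probes of 10 genes, with 3 called lower (15.8%, against 13.3% of all tested probes) and 1 called higher. Their median was -0.27, but -0.11 without hSRY-ON 2 and -0.14 with median scaling. Without background correction it was also -0.14, with 6 called lower. The groups did not overlap in 12 of 19 probes (63.2%, against 46.6% of all), with hSRY-ON below in 9, and 24.1% of all tested probes had hSRY-ON below in this way. Those 9 include every probe of Irf1, so they are not separate genes. Irf1, which interferon gamma induces and which activates class I genes, supplied 2 of the 3 lower calls. At ILMN_2649068, Irf1 had levels of 9.46, 9.69 and 9.46 in hSRY-OFF and 8.72, 8.58 and 8.92 in hSRY-ON. The difference was -0.80 ± 0.14 (limma adjusted p = 0.0083). At ILMN_2649067, the levels were 9.62, 9.80 and 9.59 against 9.03, 8.92 and 8.98, a difference of -0.70 ± 0.12 (limma adjusted p = 0.0072).

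Irf1 had 5 probes, and in each of them the 3 hSRY-ON values were below the 3 hSRY-OFF values. The other 3 gave -0.27 ± 0.11, -0.72 ± 0.23 and -0.33 ± 0.12, with limma adjusted p of 0.110, 0.054 and 0.085. Without hSRY-ON array 1 the last 2 of these passed as well, at -0.98 and -0.40. The probe at -0.98 was detected on 2 of the 3 hSRY-ON arrays. The 2 called probes kept their call on leaving out each array in turn.

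Stat2 and Irf9, which act together in type I signalling, were not called. Stat2 gave 0.09 ± 0.14, and the 2 probes of Irf9 gave -0.18 ± 0.14 and -0.31 ± 0.14. Irf7, which amplifies type I interferon production, had levels of 5.12, 5.63 and 5.14 in hSRY-OFF and 5.50, 5.65 and 6.04 in hSRY-ON. Detection was limited to 1 array of hSRY-OFF but reached all 3 of hSRY-ON, and its difference was 0.43 ± 0.20 (limma adjusted p = 0.153). The 3 probes of Irf3, which starts interferon production in infected cells, gave -0.04, 0.20 and -0.09. Irf2, which opposes Irf1, gave -0.35 ± 0.18 and Irf8, a factor of myeloid cells, gave -0.29 ± 0.19. Irf5, active in macrophages and dendritic cells, gave 0.49 ± 0.19 (limma adjusted p = 0.090) and passed without hSRY-ON 1, at 0.66. Irf4, a lymphocyte factor, was detected on 2 hSRY-OFF arrays and no hSRY-ON array, so it was not tested.

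The antiviral effectors held 5 of the 10 higher calls, all from Oas1d, Ifit3 and Usp18. Of 13 tested probes 5 were higher (38.5%, against 13.6% of all tested probes) and none was lower. Their median was 0.44, but 0.24 without hSRY-ON 1 and 0.21 without background correction. Oas1d belongs to the oligoadenylate synthetase family, of which it is a member without synthetase activity, described in oocytes. At ILMN_2929966 its levels were 4.98, 5.27 and 4.88 in hSRY-OFF, where it was detected on 1 array, and 8.17, 7.47 and 6.98 in hSRY-ON, where it was detected on all 3. The difference was 2.50 ± 0.29 (limma adjusted p = 0.0024), and 0.97 without background correction, which compresses dim probes. It passed the filter through the hSRY-ON arrays, and its size is uncertain because most hSRY-OFF values were not above background. The other Oas1d probe, ILMN_2737613, was not detected on any of the 6 arrays and was not tested.

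Ifit3 rose at both of its probes. ILMN_2944666 had levels of 9.06, 9.26 and 9.29 in hSRY-OFF and 11.51, 11.74 and 10.54 in hSRY-ON. All 3 hSRY-ON arrays lay above, with array 3 the lowest of them, and the difference was 2.06 ± 0.30, or 4.17-fold (limma adjusted p = 0.0046). ILMN_1230458 had 6.06, 6.34 and 6.25 against 8.30, 8.16 and 7.07, a difference of 1.62 ± 0.32 (limma adjusted p = 0.012). Without background correction this second probe gave 0.81. Both kept their call without any of the 6 arrays.

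Usp18, which removes Isg15 from proteins and dampens the type I receptor, rose at both probes. ILMN_3131679 had levels of 8.38, 8.51 and 8.36 in hSRY-OFF and 9.31, 9.68 and 9.40 in hSRY-ON, a difference of 1.04 ± 0.14 (limma adjusted p = 0.0034). ILMN_3054914 had 7.27, 7.07 and 6.98 against 8.07, 7.99 and 7.46, a difference of 0.74 ± 0.19 (limma adjusted p = 0.029). The first kept its call in every alternative run. The second, 0.42 without background correction, lost its call on leaving out any array other than hSRY-ON 3, with adjusted p between 0.052 and 0.096.

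Other effectors of the same kind gave no call. Rsad2, whose promoter holds the same motif as that of Ifit3, had levels of 11.72, 10.97 and 11.23 in hSRY-OFF and 11.41, 11.13 and 11.08 in hSRY-ON. The values were interleaved, and the difference of -0.10 had a 95% interval from -0.59 to 0.39 (limma adjusted p = 0.746). Ifit2, the neighbour of Ifit3, was looked at after its values were seen. Its probes gave 0.26 ± 0.11 and -0.06 ± 0.38. Of the Oas genes, Oas1b gave 0.67 ± 0.23 (adjusted p = 0.071), and was above background on 1 array of hSRY-OFF and 3 of hSRY-ON. Oas1b passed without hSRY-ON 3, at 0.88. Oas1c gave 0.30, Oas1g -0.14 and the 2 probes of Oasl2 0.44 and -0.27, of which the last passed as lower without hSRY-ON 1, at -0.87. That Oasl2 probe was not detected on hSRY-ON 2, where its level was 5.12.

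Mx1, Ifit1, Oas1a, Oas1f, Oas1h and Oas3 were not detected on any array, and Oas1e, Oas2 and Oasl1 were detected on 1. Genes of the Ifit and Oas families are close copies of each other, and whether signal was shared between them was not tested.

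**Figure D2:**
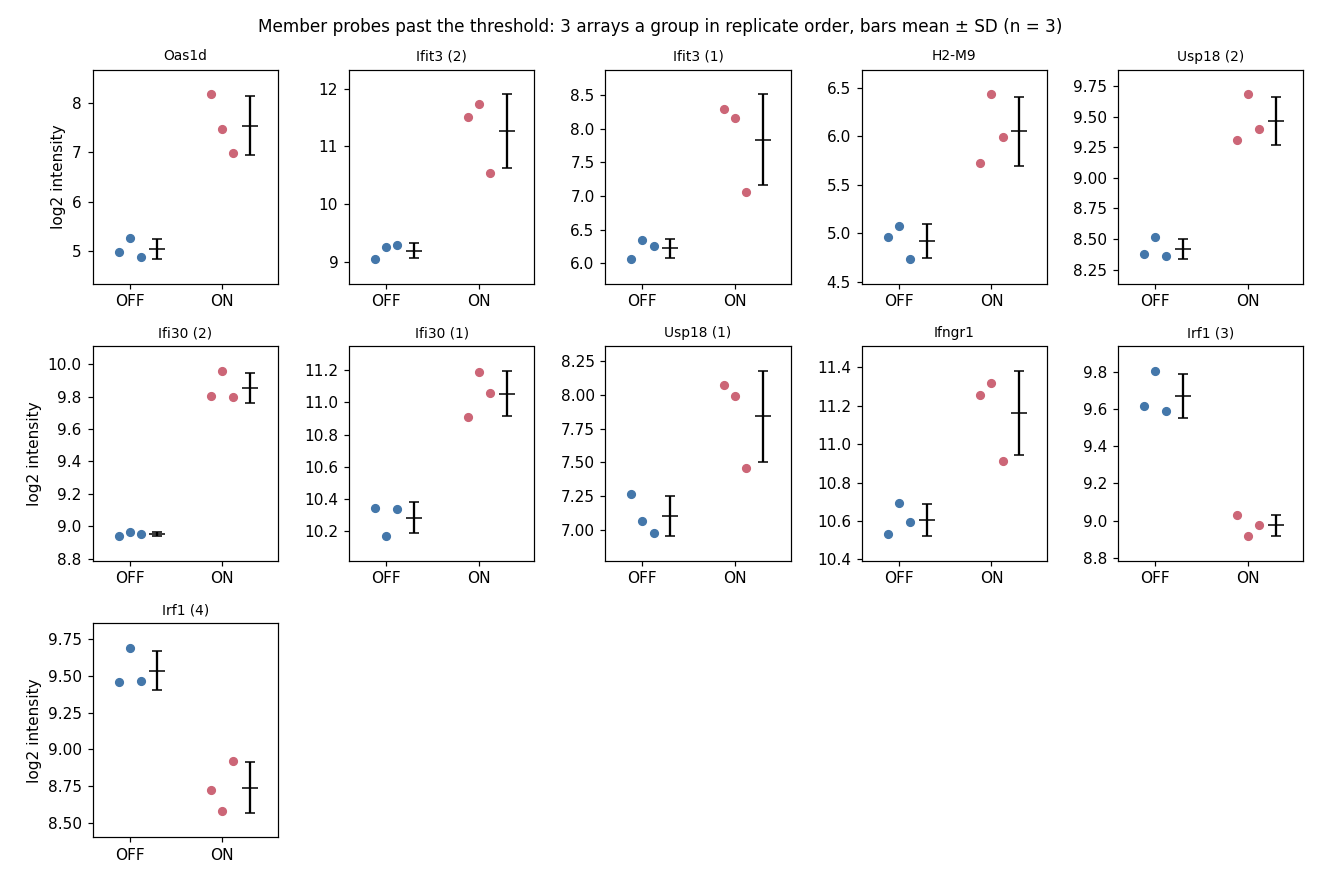
Normalized log2 intensity of 11 of the 13 called probes on each of the 3 hSRY-OFF (blue) and 3 hSRY-ON (red) arrays, ordered by difference, with bars for mean ± SD (n = 3); each panel has its own axis, which does not start at 0. In all 11 panels the groups do not overlap, and hSRY-ON array 3 is the lowest of its group for both Ifit3 probes, Oas1d and Ifngr1.

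The Ifitm genes, which encode membrane proteins that hinder virus entry, gave no call in 3 tested probes, where 26.9% of all tested probes were called. Ifitm2 had levels of 13.65, 13.68 and 13.68 in hSRY-OFF and 13.44, 13.26 and 13.38 in hSRY-ON. These did not overlap, and the difference of -0.31 ± 0.11 missed the threshold (limma adjusted p = 0.079). Ifitm2 was called lower without background correction (adjusted p = 0.023) and with a variance trend and robust estimation (0.012). Ifitm3 gave 0.02 ± 0.12, and Ifitm5, known from bone, gave 0.21 ± 0.13. Ifitm1, Ifitm6 and Ifitm7 were not tested. The probes of Ifitm1 were detected on no hSRY-OFF array and at most 2 hSRY-ON arrays, with hSRY-ON above and no overlap. Without the detection filter 1 of them, ILMN_1245129, was called higher, at 0.81 (limma adjusted p = 0.0093), from values mostly near background.

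Among 5 tested probes of the other Ifi genes 2 were called (40%, against 26.9% of all tested probes). Ifi30 was the only one of these genes called, and it rose at both probes. It encodes a lysosomal thiol reductase of antigen-presenting cells, which serves class II presentation. ILMN_2767918 had levels of 8.94, 8.97 and 8.95 in hSRY-OFF and 9.80, 9.96 and 9.80 in hSRY-ON, a difference of 0.90 ± 0.11 (limma adjusted p = 0.0027). ILMN_1228213 had 10.35, 10.17 and 10.34 against 10.91, 11.19 and 11.06, a difference of 0.77 ± 0.13 (limma adjusted p = 0.0068). Its 3 hSRY-ON values were close together, with array 2 the highest at both probes. Ifi35 gave 0.02 ± 0.11 and Ifi27 -0.05 ± 0.41. Ifi47 gave -0.51 ± 0.45, with 6.70 on hSRY-ON 1 against 4.84 and 5.15 on the other hSRY-ON arrays, which did not detect it. It passed as lower without hSRY-ON 1, at -1.09, a size that rests on undetected hSRY-ON values. Ifi44, Ifi203, Ifi204 and Ifi205 were detected on no array, and Ifi202b was detected on 2.

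The interferon-induced GTPases gave no call, where 26.9% of all tested probes were called. The 6 probes of Gbp2, Gbp3, Gbp6 and Igtp, which attack the vacuoles of microbes inside cells, had differences from -0.54 to 0.10. Their median was -0.25, but -0.05 without hSRY-ON 2 and -0.45 without hSRY-ON 3, and -0.11 without background correction. Igtp had levels of 8.88, 9.27 and 9.16 in hSRY-OFF and 9.08, 8.24 and 9.68 in hSRY-ON. Array 2 was the lowest and array 3 the highest of all 6, and the difference of -0.10 had a 95% interval from -0.91 to 0.70. Without hSRY-ON 2 it was 0.28. Gbp4 and Gbp5 were detected on no array, and Gbp1 and Gbp10 were detected on 2.

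The class I heavy chain genes gave 1 call, H2-M9, among 8 tested probes (12.5%, against 26.9% of all tested probes). H2-M9 is a class Ib gene known from sensory neurons of the vomeronasal organ. Its levels were 4.96, 5.07 and 4.73 in hSRY-OFF, where it was not detected, and 5.73, 6.43 and 5.99 in hSRY-ON, where all 3 arrays detected it. It was therefore at least 1.69-fold higher in hSRY-ON (limma adjusted p = 0.0086), the mean of its detected values set against the mean of the higher of its own value and the dimmest detected probe of each array. It passed the filter through hSRY-ON alone, and it was not tested under a detection p of 0.01 or where detection on all 6 arrays was asked.

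None of the other 7 heavy chain probes was called. H2-K1, a classical heavy chain, had levels of 5.74, 6.11 and 6.18 in hSRY-OFF and 5.36, 4.99 and 6.79 in hSRY-ON, where 1 of 3 arrays detected it. The highest and the lowest value were both from hSRY-ON, and the difference was -0.30 ± 0.44. It was -0.84 and called without hSRY-ON 3, and 0.06 without hSRY-ON 2. H2-T23, which encodes Qa-1, a ligand of NK cell receptors, was chosen after its values were seen, as the lowest difference of all 70 probes. Its levels were 7.38, 7.64 and 8.001 against 7.10, 6.02 and 7.06, without overlap, and its difference was -0.95 ± 0.31 (limma adjusted p = 0.063). H2-T23 passed under 6 of the 16 alternatives, with adjusted p between 0.036 and 0.046, among them without hSRY-ON 1. H2-Q8, likewise chosen afterwards, gave -0.44 ± 0.31 and passed without hSRY-ON 3, at -0.82. H2-M3, H2-Q2, H2-Q7 and H2-T10 lay between -0.21 and 0.11.

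Of the heavy chain genes, 15 were not tested, among them the H2-M10 genes, H2-M1, H2-M2, H2-M11, H2-Q1, H2-Q5, H2-Q10, H2-T3, H2-T24 and H2-D4. Class I genes differ between mouse strains and resemble each other closely. How well the probes fit the FVB/N alleles was not tested.

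The genes that cut, carry and load class I peptides gave no call in 10 probes of 7 genes, where 26.9% of all tested probes were called. Of these differences 8 were below 0, as were 7359 of the differences of all 13841 tested probes. The median of the 10 probes was -0.22, but -0.39 without hSRY-ON 3, -0.14 without hSRY-ON 2 and -0.09 with median scaling. B2m had levels of 13.57, 13.65 and 13.69 in hSRY-OFF and 13.51, 12.76 and 13.61 in hSRY-ON at ILMN_1216746, with hSRY-ON 2 far below the rest, and a difference of -0.34 ± 0.23. Its other probe gave -0.43 ± 0.21 (limma adjusted p = 0.161), with hSRY-ON below and no overlap.

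Psmb8 and Psmb9, inducible proteasome subunits, gave -0.40 ± 0.17 and -0.52 ± 0.33. Psmb9 had 9.11, 9.23 and 9.41 in hSRY-OFF and 8.74, 8.01 and 9.45 in hSRY-ON, so that the hSRY-ON arrays spanned the hSRY-OFF values. Without hSRY-ON 3 both were called, at -0.55 and -0.87. The probes of Psmb10 gave -0.23 ± 0.13 and -0.20 ± 0.12, with the groups apart at both.

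Tap1 had levels of 7.66, 8.13 and 8.07 in hSRY-OFF and 7.68, 7.09 and 8.49 in hSRY-ON. Here too hSRY-ON held the lowest and the highest value, and the difference of -0.21 ± 0.34 became 0.13 without hSRY-ON 2. Tap2, its partner, gave 0.05 ± 0.14, and the 2 probes of Tapbp -0.15 ± 0.15 and 0.11 ± 0.13. Psmb9, Tap1, Psmb8 and Tap2 are next to each other in the genome, so they are not independent positions.

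**Figure D3:**
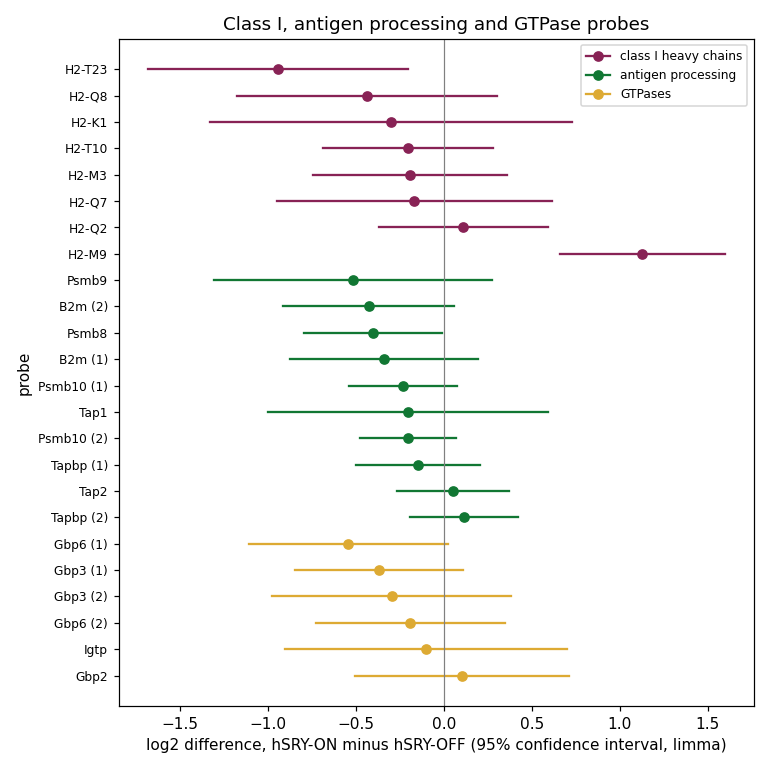
Log2 difference, hSRY-ON minus hSRY-OFF, with its 95% confidence interval from limma, for the 24 tested class I heavy chain, antigen processing and GTPase probes. H2-M9 lies above 0 as a fitted value (it was not detected in hSRY-OFF), and apart from H2-M9 only the intervals of H2-T23 and Psmb8 leave out 0. Of the 24 differences 19 lie below 0, beside 7359 of those of all 13841 tested probes.

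The hSRY-ON arrays differed from each other in the heavy chain, antigen processing and GTPase genes more than the hSRY-OFF arrays did. Over the 24 heavy chain, antigen processing and GTPase probes the median SD was 0.15 in hSRY-OFF and 0.40 in hSRY-ON, and it was larger in hSRY-ON in 22 (91.7%). Over all tested probes the medians were 0.13 and 0.22, with hSRY-ON larger in 73.6%. Antigen processing alone had 0.13 and 0.22, near all tested probes, while the heavy chains had 0.15 and 0.54 and the GTPases 0.20 and 0.46. The wider spread was not particular to these groups, since the antiviral effectors had 0.15 and 0.41, larger in hSRY-ON in 84.6%. Array hSRY-ON 2 was the lowest of all 6 in 18 of the 24 probes (75%), against 22% of all tested probes. This was not particular to the 24. The same array was the lowest in 9 of the 19 transcription factor probes (47.4%). Over all 70 tested member probes, the 24 included, it was the lowest in 35 (50%), with a median shift of -0.34. Array hSRY-ON 3 was the highest in 11 of the 24 (45.8%, against 14.5% of all). The median shift of the 24 probes from the hSRY-OFF mean was -0.23, -0.73 and 0.11 on hSRY-ON 1, 2 and 3.

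The antiviral effectors also spread more in hSRY-ON, but their positions on these arrays were other ones. Their median shift was 0.85, 0.20 and 0.35 on hSRY-ON 1, 2 and 3, and array 1 was the highest of all 6 in 8 of 13 probes. Over all tested probes the shift was between -0.03 and -0.02 on each hSRY-ON array. The probes are not independent of each other, and these positions are a description of 3 mice.

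**Figure D4:**
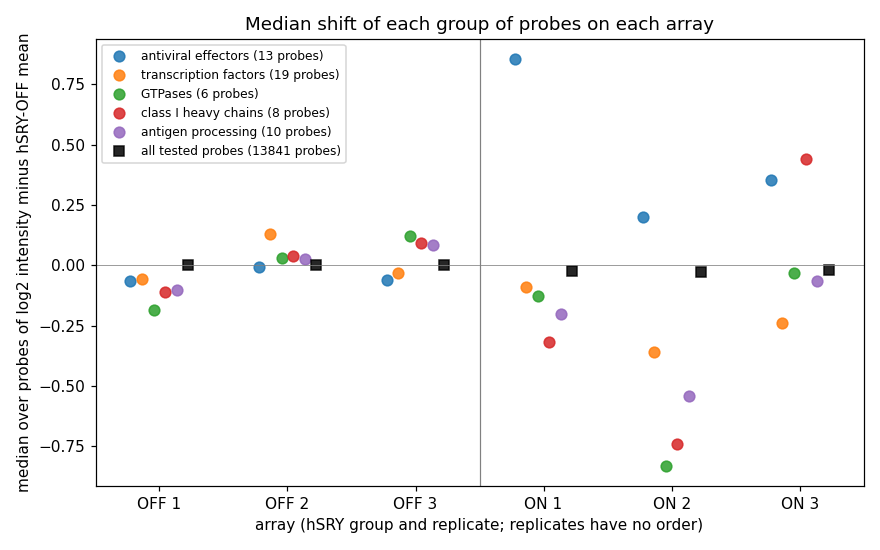
Median over the probes of 5 role groups and over all 13841 tested probes of the log2 intensity minus the hSRY-OFF mean, for each of the 6 arrays (x axis, replicates without order). The class I heavy chains stand at -0.32, -0.74 and 0.44 on the 3 hSRY-ON arrays, while all tested probes stay near 0.

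Genes of the pathway outside the members were taken from a list of 74 ligands, kinases, inhibitors, sensors, effectors and class I processing genes, of which 61 are on the array. Of their 44 tested probes, 7 were called higher (15.9%, against 13.6% of all tested probes) and 2 lower (4.55%, against 13.3%), and their median was 0.06. The largest of these differences was at Tlr7, an endosomal sensor of single-stranded RNA. Its levels were 7.04, 7.30 and 7.46 in hSRY-OFF and 8.53, 9.53 and 9.22 in hSRY-ON, a difference of 1.82 ± 0.26 (limma adjusted p = 0.0044). Bst2, which tethers budding viruses, gave 1.11 ± 0.28, and Dhx58, a regulator of cytosolic RNA sensing, 0.74 ± 0.19. Ptpn6, a phosphatase of blood cells that restrains cytokine receptors, was higher at both probes, at 0.92 ± 0.18 and 0.67 ± 0.16. Mx2 gave 0.66 ± 0.19 and was detected on 2 hSRY-OFF arrays. Ifna6 gave 0.51 ± 0.14 at 1 probe, its other probe was not detected on any array, and it belongs to a family of close copies.

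Ligands were otherwise hardly measured, since 2 of 18 ligand probes were tested and 15 were detected nowhere, Ifnb1 and Ifng not being tested. The kinases Jak2 and Tyk2 and the inhibitor Socs1 gave no call. Of the 7 tested probes for class I processing and trimming all lay below 0, as did 7359 of all 13841 tested probes. Among them the 2 probes of Psme1 were near 0, at -0.06 and -0.07. Of the 7 probes, 2 were called lower (28.6%, against 13.3% of all tested probes). The called probes were of Cd1d1, which presents lipids, at -0.82 ± 0.13, and Pdia3, of the peptide loading complex, at -0.58 ± 0.16. Cxcl9, a chemokine that interferon gamma induces, was not called. Its levels were 6.41, 7.80 and 7.81 in hSRY-OFF and 7.74, 4.87 and 8.96 in hSRY-ON, so hSRY-ON 2 was the lowest and hSRY-ON 3 the highest of the 6, as for Igtp and Tap1. Cxcl9 was not detected on hSRY-ON 2, and it was chosen after its values were seen.

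Markers of several cell types differed between the groups as well, where 13.6% of all tested probes were called higher and 13.3% lower. Of 8 tested macrophage probes 3 were higher, Marco by 2.56 ± 0.41, Cd68 by 1.33 ± 0.27 and Mrc1 by 1.11 ± 0.21. The other 5, of Emr1 and Csf1r, lay from -0.26 to 0.41 and were not called. The summed normalized intensity of the macrophage list was 3063 to 3393 in hSRY-OFF and 5864 to 9379 in hSRY-ON. Of 5 T and NK cell probes 4 were lower (Cd3e by -1.75, Cd3g by -1.79, Nkg7 by -1.47, and Klrd1, not detected in hSRY-ON, at least 1.56-fold). Thy1 was higher, and Cd8a was not detected. The sums were 1389 to 1537 in hSRY-OFF and 1030 to 1615 in hSRY-ON, the latter mostly from Thy1. The mean level of Thy1 in hSRY-ON was 9.77, against 5.03 to 7.22 for the other 4. Of 6 endothelial probes 2 were lower (Cldn5 and Cdh5), with sums of 37807 to 40832 against 26918 to 28255 and Kdr not detected. The leukocyte list had 1 of 6 higher, Laptm5, with sums of 14928 to 16904 against 14649 to 23216 and Ptprc not detected. In the alveolar type II list 3 of 7 were higher, from Sftpb and Sftpd, with sums of 70502 to 74724 against 83173 to 87924. Sftpa1 gave 0.41, Sftpc -0.25 and the Lamp3 probes -0.31 and -0.18, none of them called.

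Of 2 thymocyte probes 1 was lower, Cd8b1, which 1 of 3 hSRY-ON arrays detected (difference -2.24 ± 0.36), with sums of 284 to 369 against 81.5 to 146 and Rag1, Rag2 and Dntt not detected. The plasmacytoid dendritic cell list had 1 of 2 higher, Bst2, which is also among the other pathway genes above, and Siglech was not detected. Its sums of 7884 to 7909 against 5837 to 7839 came mostly from Tcf4, which was not called at -0.31 ± 0.14. In hSRY-OFF the mean level was 12.91 for Tcf4 and 7.54 for Bst2. The 4 alveolar type I, 4 erythroid and 4 cardiac muscle probes gave no call. The part of these cell types in the differences of the interferon and class I genes was not tested.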

How the data were processed

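Biotinylated cRNA made from whole-lung total RNA was measured on Illumina MouseRef-8 v2.0 BeadChips, with 1 array per mouse. Groups and replicate numbers were taken from the sample labels. For each probe and array the authors deposited a linear intensity with its detection p-value. These intensities are neither background-corrected nor normalized, and array medians were 177.1 to 204.0. The software that summarised the beads is not given in the sources used here, nor are slides and scan dates. The study used TCC, a count method. Since intensities are not counts, limma 3.58.1 in R 4.3.3 was used on the same samples, without covariates.

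Intensities were corrected as in neqc (normexp from the detection p-values, offset 16), quantile-normalized and taken to log2. Quantile normalization removes any overall shift between arrays, and the offset compresses dim probes. A probe was kept if 3 or more of the 6 arrays detected it at p under 0.05, which held for 13841 of 25697. Of the 70 member probes kept, 58 were detected on all 6 arrays, 5 on fewer than 3 hSRY-OFF arrays and 8 on fewer than 3 hSRY-ON arrays. No 2 arrays held identical values. The fit used lmFit and eBayes over all kept probes, two-sided, and was tested on simulated data. With 3 against 3, p-values measure the spread between these samples, which may be partly technical, and exact permutation for 1 probe could not give a p below 0.1. The number of arrays limits the precision.

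The members and all lists were chosen with earlier results of these data known. Genes named in the text were, per role, up to 4 called probes with the smallest p in each direction, and a set list of receptor, Stat, Irf, Isg15, Rsad2, Usp18, Mx1, Igtp, B2m, H2-K1, H2-D1, Tap, Tapbp and Psmb genes; others are said to be chosen after their values were seen or are given with their group. Some genes chosen by these rules are not reported here, though their probes stay in the counts, and the plots by probe leave them out. Symbols are those of the array, and 85 of the 86 member symbols matched a RefSeq gene table. Promoter windows were searched on both strands. Alternatives were other background corrections, normalizations, filters and variance models, array weights, a replicate block and leaving out each array in turn, with the filter kept from all 6 arrays.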

Additional observations from a re-analysis of the deposited data

How the results depend on the processing

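With 16 alternatives, the count of member probes called higher stayed between 8 and 12 (10 as reported), and the median difference between -0.19 and 0.03. The count called lower, 3 as reported, was 8 without background correction, 5 with median scaling, 6 with a variance trend and robust estimation and 5 with array weights. On leaving out 1 array, the counts ran from 8 to 12 higher and from 2 to 8 lower, the upper end for lower calls being reached without hSRY-ON replicate 1 and without hSRY-ON replicate 3. Other pathway probes ran from 2 to 6 higher and 1 to 3 lower, all probes called from 1652 to 4442, and of the 13 calls 10 to 13 were kept. With median scaling, other pathway probes called lower were 1, against 2. Outside the losses given for Ifngr1 and Usp18, the called probes named in the text kept their call wherever they were tested.

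Uncalled differences near 0 changed sign. With median scaling Rsad2 was 0.071, Ifnar2 (ILMN_2971514) -0.0014 and Irf3 0.050 (ILMN_1224505) and 0.10 (ILMN_2664319). On leaving out 1 array, Rsad2 ran from -0.27 to 0.11, these Irf3 probes from -0.16 to 0.13 and from -0.24 to 0.043, and Ifnar2 from -0.020 to 0.15 and from -0.012 to 0.12. Tap1 ran from -0.57 to 0.13, Tap2 from -0.034 to 0.11, H2-K1 from -0.84 to 0.058 and Igtp from -0.44 to 0.28. For Tap1, H2-K1, Igtp and Ifnar2 the sign turned without hSRY-ON replicate 2, for Tap2 and Irf3 without hSRY-ON replicate 3, and for Rsad2, Tap2 and Ifnar2 (ILMN_2971514) without hSRY-OFF replicate 1. The cause was not tested.

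The labels share replicate numbers across groups, but deviations of same-numbered arrays correlated at -0.107, 0.0957 and -0.0927, so the numbers were not taken to pair the mice. With a replicate block, 9 member probes were higher and 2 lower, 3 other pathway probes were higher and 1 lower, and 2655 of all probes were called, against 3728; Ifngr1 (adjusted p = 0.056) was among those lost, and 11 of the 13 calls were kept. Probes near background limit what could be seen, since 61 of 131 member probes were not tested.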
